A study of Mus musculus with 24 samples.

Results

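Il17a, Il17f and Il22, the genes of the cytokines IL-17A, IL-17F and IL-22, were followed through sorted lymphocytes of the mouse small intestine with and without deletion of the nuclear receptor genes Nr1d1 and Nr1d2. The genes were taken by symbol from the table of counts per gene, and they are 3 of its 55487 genes. All 3 passed the filter on low counts. IL-17A and IL-17F are related proteins that pair with themselves or with each other and act through receptors built from IL-17RA and IL-17RC on epithelial and stromal cells, where they induce chemokines and antimicrobial proteins. IL-22 belongs to the IL-10 family and acts through IL-22RA1 and IL-10RB on epithelial cells, where it supports barrier repair. In the gut these cytokines come from group 3 innate lymphoid cells (ILC3) and from T cells, both of which respond to IL-23. REV-ERBα and REV-ERBβ, the products of Nr1d1 and Nr1d2, are nuclear receptors that repress genes of the circadian clock.

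The libraries came from cells sorted out of the small intestine lamina propria of mice aged 8 to 12 weeks. Mice labelled DKO carried Vav1-Cre, which is active across blood cells, together with floxed Nr1d1 and Nr1d2, and the controls, labelled WT, were littermates with the same floxed genes. Cells were sorted into ILC1, NKp46, CCR6 and DN, as the labels call them, with 3 libraries for each population and genotype and 24 in all. NKp46 and CCR6 are surface receptors that mark subsets of ILC3. The sources used here do not explain the label DN. Vav1-Cre also reaches T cells and other blood cells of the same animals, so the sorted cells were not the only cells with the deletion. Whether the 3 libraries of each group stand for different animals is not stated, and p-values therefore measure the spread between these libraries, which may be technical.

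Totals per library ran from 12763228 to 84395154 counts. WT ILC1 library 2 was the shallowest and protein-coding genes took 84.1% of its counts, where the other libraries had 91.6% to 94.9%. The sorting markers followed the NKp46 and CCR6 labels. Ncr1, which encodes NKp46, was at 824 ± 103 CPM in WT NKp46 and 9.87 ± 3.41 in WT CCR6. Ccr6 was at 1399.6 ± 86.7 CPM in WT CCR6 and 7.54 ± 4.32 in WT NKp46 (SD, n = 3). The labels ILC1 and DN were not checked in this way. CPM are counts per 1000000 counts of the library, after scaling by normalization factors. The targeted genes did not fall with the DKO label. Nr1d1 was called higher in DKO in 4 of 4 populations, by 0.82 to 2.34 on the log2 scale, and Nr1d2 in 3 of 4, by 1.01 to 1.99 over all 4. Which exons are deleted is not stated, and a count summed over a whole gene is blind to the loss of an exon. The genotype labels are thus unchecked by these values, and every direction below is that of the libraries labelled DKO against those labelled WT.

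Il17f (ENSMUSG00000041872) lies on chromosome 1 at 20777146 to 20790617 of GRCm38, on the minus strand, and Il17a (ENSMUSG00000025929) lies 42650 bases away at 20730905 to 20734496, on the plus strand. Over their coding sequences the genes are 57.4% identical. The stretches before their RefSeq starts (build GRCm38.p6) are shown because Il17f had the genotype difference called in the most populations, because Il17a is its neighbour and relative, and because each holds AGGTCA, the core hexamer bound by REV-ERB receptors. Il17a covers chr1:20730655-20730904 on the plus strand and Il17f chr1:20784271-20784494 on the minus strand. Both are written 5′ to 3′ along the gene, with the match in capitals, and in Il17a the match lies on the opposite strand and reads TGACCT.
Il17a: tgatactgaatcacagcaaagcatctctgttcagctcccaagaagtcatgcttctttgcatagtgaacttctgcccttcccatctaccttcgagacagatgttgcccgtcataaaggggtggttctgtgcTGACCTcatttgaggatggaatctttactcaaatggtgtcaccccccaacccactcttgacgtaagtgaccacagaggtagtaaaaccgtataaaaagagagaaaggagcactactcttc
Il17f: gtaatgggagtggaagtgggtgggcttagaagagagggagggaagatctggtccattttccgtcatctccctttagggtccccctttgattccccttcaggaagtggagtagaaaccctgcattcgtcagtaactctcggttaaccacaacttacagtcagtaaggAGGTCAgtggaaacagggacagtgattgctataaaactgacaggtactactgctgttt
The Il17a match lies at positions -120 to -115 from the RefSeq start and the Il17f match at -58 to -53. AGGTCA was searched on both strands, and 14% of 32851 RefSeq promoters hold it within the 250 bases before the start. CACGTG, the element bound by the clock activators BMAL1 and CLOCK, and TTCNNNGAA, the element bound by STAT factors, had no match in either stretch and occurred in 6.02% and 7.02% of promoters. The Il17f stretch is 224 bases, and it lies inside the span of the GENCODE gene, some of whose transcripts start further upstream. The corresponding stretch of Il22 (228 bases) held none of the 3 motifs, while that of Iltifb, a near-identical copy of Il22 that was called in no population, held AGGTCA on the opposite strand at -115 to -110. A match of 6 letters is a description of the sequence, and no binding was measured.

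The comparison of DKO with WT within each population asks how loss of the REV-ERBs bears on cytokine transcripts. Il17f was higher in the DKO libraries of every population other than ILC1. In NKp46 it measured 6.55, 1.97 and 4.05 CPM in the WT libraries and 100.9, 192 and 56.0 CPM in the DKO libraries. Each DKO library was above each WT library, with no overlap. The rise was 4.81 ± 0.61 on the log2 scale (SE; adjusted p = 3.3e-05), a 28.1-fold difference. All adjusted p-values come from the quasi-likelihood test of edgeR, adjusted by Benjamini-Hochberg over the 21286 genes tested, unless another tool is named, and "called" means an adjusted p below 0.05.

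In CCR6 cells Il17f measured 119.15, 67.4 and 70.03 CPM in WT and 854, 898 and 710.5 CPM in DKO. The groups did not overlap, and Il17f rose by 3.26 ± 0.56 (adjusted p = 0.00071), 9.60-fold. In DN cells it measured 35.2, 14.1 and 21.8 CPM in WT and 660.5, 858 and 430.5 CPM in DKO. Again the groups did not overlap, and the rise was 4.78 ± 0.60 (adjusted p = 2.7e-05), 27.4-fold. These 3 calls held in each of the 13 alternative analyses per population, with adjusted p-values of at most 0.011. In bulk RNA a change in the share of cells that make a transcript and a change in the amount per cell cannot be told apart.

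In ILC1 Il17f was close to the limit of detection in both genotypes. WT libraries measured 0, 0.161 and 0.991 CPM (0, 2 and 39 counts) and DKO libraries 0.0449, 0 and 0.313 CPM (1, 0 and 18 counts). The groups overlapped, and the difference of -1.55 ± 1.06 was not called (adjusted p = 0.55). Its sign turned to 1.70 ± 1.98 (adjusted p = 0.67) without WT ILC1 library 3, which held most of the WT counts.

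Il17a was the least abundant member in NKp46, CCR6 and DN cells, and its rise was called in NKp46 cells. There it measured 0.368, 0.247 and 0 CPM in WT, from 12, 12 and 0 counts, and 2.40, 5.66 and 2.44 CPM in DKO. The groups did not overlap, and the difference was 4.03 ± 0.84 (adjusted p = 0.0065), 16.4-fold. The call was lost when the NKp46 libraries were fitted alone (4.06, adjusted p = 0.057).

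In CCR6 cells, which held the most Il17a in either genotype, it measured 46.3, 25.5 and 21.3 CPM in WT and 135.13, 135.33 and 158.84 CPM in DKO. The DKO libraries lay close together and all above the WT libraries. The difference of 2.21 ± 0.64, 4.61-fold, missed the threshold (adjusted p = 0.062). It passed when the CCR6 libraries were fitted alone (2.21, adjusted p = 0.00035), with limma voom (2.33, adjusted p = 1.2e-07) and without WT ILC1 library 2 (2.21, adjusted p = 0.031), and did not pass with DESeq2 (adjusted p = 0.2).

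In DN cells Il17a measured 10.7, 6.77 and 12.6 CPM in WT and 22.5, 26.1 and 20.1 CPM in DKO. The groups did not overlap, but the difference of 1.19 ± 0.63 was not called (adjusted p = 0.48). In ILC1 the WT libraries held 0, 1 and 67 counts of Il17a, which is 0, 0.0804 and 1.70 CPM, and the 3 DKO libraries held 0. The difference was not called (adjusted p = 0.0503). Against a floor of 3 counts over the DKO group Il17a was at least 22.9-fold lower in DKO, and that bound rests on WT ILC1 library 3. Without that library the adjusted p was 0.56.

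**Figure D1:**
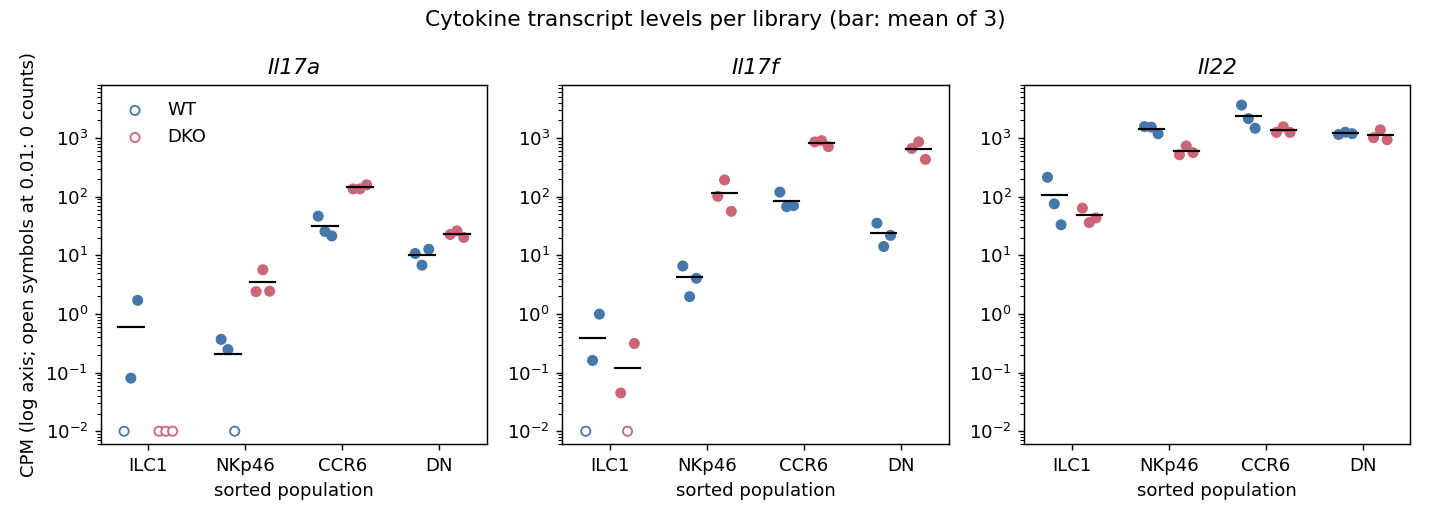
Transcript levels of Il17a, Il17f and Il22 in CPM (log axis) for each library, by sorted population and genotype, with the mean of 3 libraries as a bar and libraries with 0 counts drawn as open symbols at 0.01. Il17f in NKp46, CCR6 and DN cells lies above the WT range in all 9 DKO libraries, while Il22 stays between 517 and 3628 CPM in those populations in both genotypes.

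Il22 (ENSMUSG00000074695; GRCm38 chromosome 10, 118204942 to 118210047, plus strand, 5 exons) showed no called genotype difference in any population. In NKp46 it measured 1560.1, 1531 and 1176 CPM in WT and 517, 731 and 561 CPM in DKO. All DKO libraries were below all WT libraries, and the difference was -1.24 ± 0.41 (adjusted p = 0.11). DESeq2 called it (-1.23, adjusted p = 0.036), as did the fit of the NKp46 libraries alone (-1.23, adjusted p = 0.0012).

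CCR6 cells had 3628, 2132 and 1460.0 CPM of Il22 in WT and 1243, 1545 and 1239.6 CPM in DKO. The groups overlapped, and the difference was -0.84 ± 0.41 (adjusted p = 0.39). DN cells had 1143, 1251 and 1183 CPM in WT and 1007, 1376 and 931 CPM in DKO. These groups also overlapped, at -0.11 ± 0.41 (adjusted p = 0.97), with a 95% interval from -0.96 to 0.74. ILC1 had 213, 75.1 and 33.0 CPM in WT and 63.5, 36.0 and 43.2 CPM in DKO, a wide WT spread that overlapped DKO (-1.17 ± 0.42, adjusted p = 0.22). Without WT ILC1 library 3, the lowest, the ILC1 difference was called (-1.59, adjusted p = 0.015), and without library 1, the highest, it shrank to -0.18 (adjusted p = 0.82).

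In NKp46 cells 2 of the 3 cytokine genes were called higher, against 1.99% of all genes tested called in that direction. In CCR6 cells it was 1 of 3 against 1.93%, and in DN cells 1 of 3 against 1.49%. In ILC1 edgeR called none of the 3 in either direction, against 1.06% of genes, while DESeq2 called Il17a lower. At an unadjusted p under 0.05, Il17a and Il22 were lower in ILC1, as were 1340 of the 21286 genes tested.

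**Figure D2:**
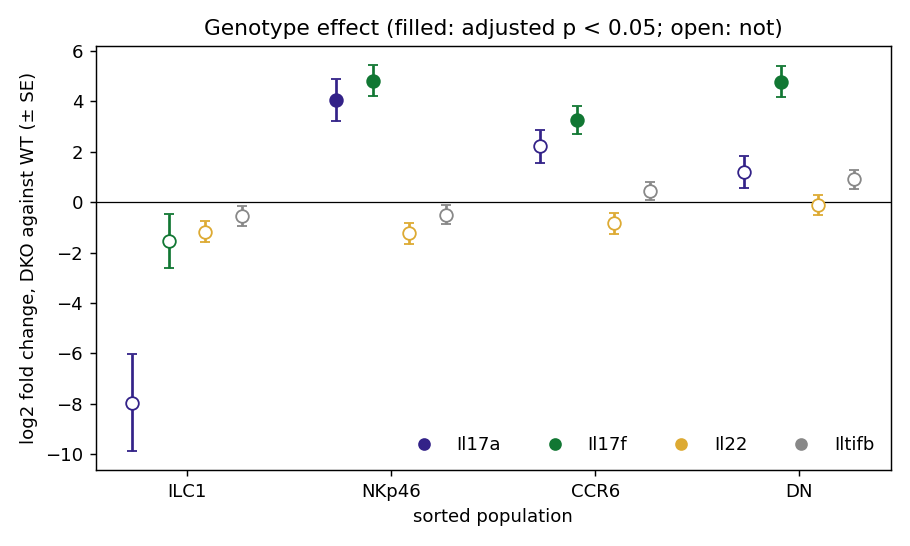
Log2 fold change of DKO against WT (± SE) from edgeR for Il17a, Il17f, Il22 and Iltifb in the 4 sorted populations, with filled symbols for an adjusted p under 0.05. Il17f lies between 3.26 and 4.81 in NKp46, CCR6 and DN, while the Il22 values run from -1.24 to -0.11 and none of them is filled.

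Iltifb (ENSMUSG00000090461; chromosome 10, 118289629 to 118295038, minus strand) is a near-identical copy of Il22 that lies 79582 bases from it, and counts of the pair can be split or lost where reads match both. Their transcripts are 97.3% identical, with 29 differing bases and 1 gap base over 1111. Of the 1011 windows of 100 bases in the Il22 transcript, 20.4% occur unchanged in Iltifb. A stretch of the coding sequence, bases 130 to 219, is shown because a read within it tells the copies apart at 4 bases, which stand in capitals.
Il22: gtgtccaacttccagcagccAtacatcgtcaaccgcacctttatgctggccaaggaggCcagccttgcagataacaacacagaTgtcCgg
Iltifb: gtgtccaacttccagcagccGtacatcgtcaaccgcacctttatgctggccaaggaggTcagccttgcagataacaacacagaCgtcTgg
How reads that match both copies were treated is not given in the sources used here.

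Iltifb made up 3.69% to 5.26% of the summed counts of the pair in the 12 WT libraries and 5.54% to 10.02% in the 12 DKO libraries. No DKO library was below any WT library. The means were 4.26% ± 0.806 in WT and 6.17% ± 0.908 in DKO ILC1, and for NKp46 they were 4.71% ± 0.0998 and 7.44% ± 1.32 (SD, n = 3). CCR6 went from 4.23% ± 0.458 to 9.48% ± 0.742, and DN from 4.61% ± 0.689 to 8.90% ± 0.288. The share was 3.55 points higher in DKO on average over the 4 populations. This share was singled out after its values were seen, and no test is given for it. Iltifb itself was called in no population, with DKO differences of -0.54 ± 0.40 (ILC1), -0.50 ± 0.37 (NKp46), 0.43 ± 0.36 (CCR6) and 0.90 ± 0.37 (DN). With Il22 and Iltifb summed before the fit, an alternative added after the data were seen, the Il22 differences became -1.13, -1.20, -0.75 and -0.04 in the same order, and no call changed.

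The members were next set against each other within the same libraries, to see whether they moved by unequal amounts. In the NKp46, CCR6 and DN libraries the log2 ratio of Il22 to Il17f fell in DKO by 5.98, 4.05 and 4.95. Its group means went from 8.52 ± 0.888 to 2.54 ± 0.715 in NKp46, from 4.76 ± 0.332 to 0.709 ± 0.146 in CCR6 and from 5.75 ± 0.723 to 0.801 ± 0.273 in DN (SD, n = 3). No population's genotypes overlapped. The mean difference of -4.99 had an exact two-sided stratified permutation p of 0.00025, the smallest that test can give (0.0005 adjusted over the 2 ratios). Il17f alone already separated the genotypes in each of these populations, and its values enter the ratio. This p is therefore not evidence separate from the Il17f difference.

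The log2 ratio of Il17f to Il17a rose by 1.88 on average (exact two-sided stratified permutation p = 0.00175, also 0.00175 adjusted over the 2 ratios). The difference was 1.03 in NKp46, where the genotypes overlapped, 1.03 in CCR6 and 3.59 in DN, where they did not. In DN cells the mean went from 1.18 ± 0.478 in WT to 4.77 ± 0.323 in DKO. Within 1 population, 3 libraries against 3 cannot give a p below 0.1. Both stratified tests treat libraries of different populations as independent. If libraries with the same genotype and number came from 1 animal, exchanging whole animals could not give a p below 0.1 either. The ratios used CPM with 0.1 CPM added, and ILC1 was left out because its Il17 counts were near 0. Il17a was also near 0 in the WT NKp46 libraries that were kept (12, 12 and 0 counts). The Il17f to Il17a ratio in NKp46 therefore depends on the added 0.1 CPM, most of all in WT library 3 (5.37), which had 0 counts of Il17a.

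**Figure D3:**
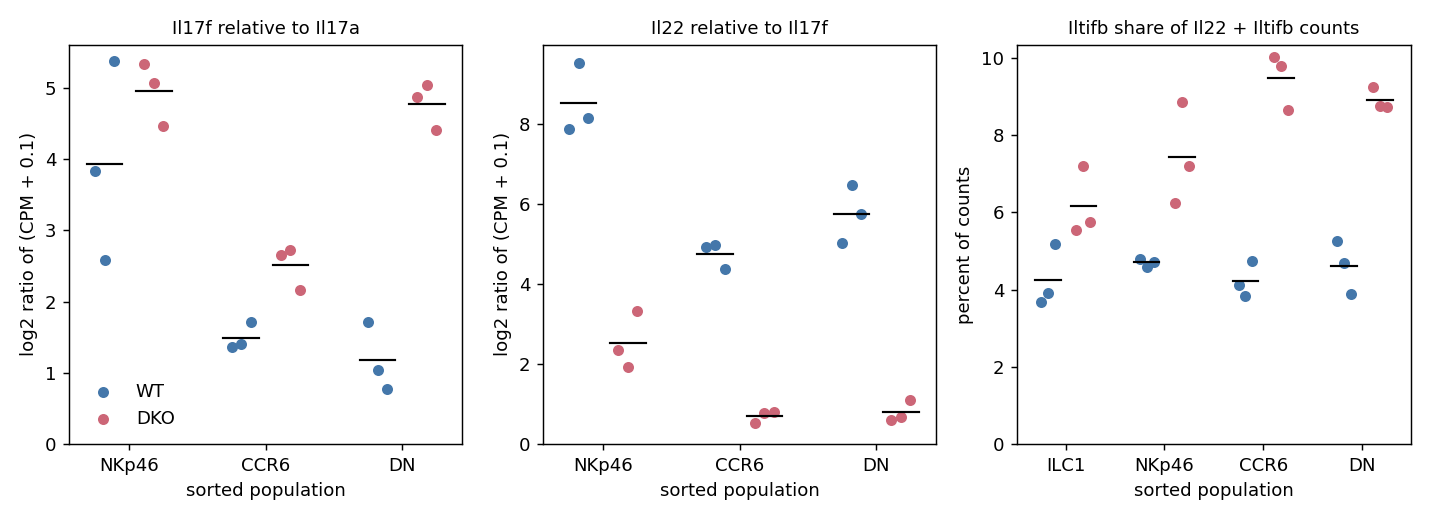
Log2 ratio of Il17f to Il17a and of Il22 to Il17f (CPM plus 0.1) per library in NKp46, CCR6 and DN cells, and the share of Iltifb in the counts of Il22 plus Iltifb in percent in all 4 populations, with bars for the means. Il22 to Il17f is lower in DKO in each of the 3 populations, and the Iltifb share is higher in every DKO library than in any WT library.

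Per length of transcript, Il22 was the most abundant member in every group. In RPKM, which are CPM divided by the exonic length in kilobases, WT NKp46 cells held 1282 ± 193 of Il22, 2.07 ± 1.13 of Il17f and 0.175 ± 0.160 of Il17a. WT CCR6 cells held 2168 ± 999.7, 42.3 ± 14.4 and 26.5 ± 11.4 RPKM in the same order, and WT DN cells 1074 ± 49.0, 11.7 ± 5.28 and 8.57 ± 2.55. In DKO CCR6 cells the levels were 1209 ± 158 RPKM of Il22, 406 ± 48.4 of Il17f and 122 ± 11.6 of Il17a. DKO DN cells held 995 ± 214, 321 ± 105.9 and 19.6 ± 2.55 RPKM. The Il17f length counts the exons of all its annotated transcripts, 2022 bases, which lowers its RPKM if the cells use a shorter one.

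Across the WT populations the genes divided differently, which the comparisons of WT populations with each other address. Il17a and Il17f were highest in CCR6 cells, then DN, then NKp46, while Il22 was high in all 3. WT CCR6 cells had more Il17a than WT NKp46 cells by 7.18 ± 0.88 (adjusted p = 1.3e-05) and more Il17f by 4.37 ± 0.60 (adjusted p = 3.8e-05), so 2 of 3 members were called higher there against 2.82% of genes. Il22 differed between these populations by 0.76 ± 0.41 (adjusted p = 0.38), and its libraries overlapped. WT DN cells exceeded WT NKp46 cells by 5.55 ± 0.84 in Il17a (adjusted p = 0.00053) and by 2.51 ± 0.56 in Il17f (adjusted p = 0.012), again 2 of 3 against 2.25% of genes. The Il17f call had adjusted p-values from 0.0067 to 0.11 over 13 alternatives and held in 7 of them.

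Between WT DN and WT CCR6 cells 1 of 3 members was called lower in DN, against 1.95% of genes. This was Il17f, lower in DN by 1.85 ± 0.53 (adjusted p = 0.041), and its adjusted p ran from 0.0091 to 0.2 over 13 alternatives, with the call held in 5. Il17a was lower there by 1.63 ± 0.63 without being called (adjusted p = 0.16), although the libraries did not overlap.

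WT ILC1 held the least Il22 and Il17f. Il22 was higher than in ILC1 by 3.73 ± 0.46 in NKp46, 4.49 ± 0.47 in CCR6 and 3.48 ± 0.45 in DN cells, with adjusted p-values of 6.8e-06, 2.8e-07 and 1.6e-05. All 3 members were called higher than in ILC1 in CCR6 and in DN cells, against 9.99% and 4.73% of genes. In NKp46 cells it was 2 of 3, against 5.6%, and the Il17f call there had adjusted p-values up to 0.21 over 12 alternatives. Il17a was not called in that pair, at 0.205 ± 0.187 CPM in NKp46 and 0.594 ± 0.960 CPM in ILC1 (adjusted p = 0.24).

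Among the DKO populations the order of Il17f changed less than its level. DKO CCR6 and DKO DN libraries overlapped for Il17f (-0.34 ± 0.51 for DN against CCR6, adjusted p = 1), and both exceeded DKO NKp46, by 2.82 ± 0.55 (adjusted p = 0.0023) and 2.48 ± 0.54 (adjusted p = 0.029, up to 0.15 over 13 alternatives). Il17a stayed higher in CCR6 than in NKp46 by 5.35 ± 0.75 (adjusted p = 8.9e-05). It was lower in DN than in CCR6 by 2.64 ± 0.65 (adjusted p = 0.04, up to 0.23 over 13 alternatives). That call held in 3 of the 13, and the Il17f call of DN against NKp46 held in 7 of 13. So 2 of 3 members were called higher in DKO CCR6 than in NKp46 (2.47% of genes), 1 of 3 higher in DN than in NKp46 (0.474%) and 1 of 3 lower in DN than in CCR6 (0.432%). Il22 was called in none of these pairs. Against DKO ILC1 all 3 members were called higher in NKp46, CCR6 and DN (2.3%, 5.88% and 4.07% of genes). DKO ILC1 had 0 counts of Il17a, so the Il17a differences are bounds of at least 134.8-fold, 5512-fold and 883-fold.

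Ordered by mean level over the 8 groups, Il17f was highest in DKO CCR6 (821 ± 97.9 CPM) and DKO DN (649.8 ± 214), whose libraries overlapped. DKO NKp46 (116 ± 69.4) and WT CCR6 (85.5 ± 29.1) followed, also overlapping, then WT DN (23.7 ± 10.7), WT NKp46 (4.19 ± 2.29) and both ILC1 groups. For Il17a the order was DKO CCR6 (143 ± 13.6 CPM), WT CCR6 (31.0 ± 13.4) and DKO DN (22.9 ± 2.99), the last pair overlapping, then WT DN (10.04 ± 2.99), DKO NKp46 (3.50 ± 1.87) and the groups under 1 CPM. For Il22 the groups from WT CCR6 (2407 ± 1109.6 CPM) through WT NKp46 (1423 ± 214), DKO CCR6 (1342 ± 175), WT DN (1192 ± 54.4) and DKO DN (1105 ± 238) each overlapped the next, and DKO NKp46 (603 ± 113) lay below them and above ILC1 (107 ± 94.2 in WT, 47.6 ± 14.2 in DKO).

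Whether the genotype effect differed between populations was tested directly. A joint test over the 4 populations called Il17a (adjusted p = 0.011) and Il17f (adjusted p = 0.022) and not Il22 (adjusted p = 0.68), against 1.37% of genes called. The joint test was not rerun in the alternatives, so whether its calls depend on single libraries was not checked. The pairwise differences that passed all set ILC1 against another population. Il17a and Il17f differed between NKp46 and ILC1 (0.559% of genes called in either direction) and between CCR6 and ILC1 (1.17%), and Il17f between DN and ILC1 (0.343%). Each of these 5 calls was lost without WT ILC1 library 3, and the Il17f call between CCR6 and ILC1 held in 5 of 18 alternatives. No difference in the genotype effect of a member was called among NKp46, CCR6 and DN, where 0.423% (CCR6 against NKp46), 0.498% (DN against NKp46) and 0.127% (DN against CCR6) of genes were called. For Il17a these differences were -1.83 ± 1.04 (adjusted p = 0.76), -2.84 ± 1.04 (adjusted p = 0.31; unadjusted p = 0.013, 95% interval -5.01 to -0.68) and -1.01 ± 0.87 (adjusted p = 0.99) in that order. For Il17f they were -1.55 ± 0.75 (adjusted p = 0.65), -0.03 ± 0.73 (adjusted p = 1) and 1.51 ± 0.73 (adjusted p = 0.77) in that order. The Il22 values were 0.40 ± 0.58, 1.13 ± 0.58 and 0.73 ± 0.58, with adjusted p-values of 0.54 or more.

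Other genes of the IL-17 and IL-22 pathway were taken from lists of 82 genes, of which 72 passed the filter. In DKO 1 of them was called higher and 2 lower in ILC1, where 0.78% and 0.277% of all genes were. NKp46 cells had 5 higher and 8 lower (1.99% and 2.17% of all genes), CCR6 cells 7 and 6 (1.93% and 2.04%) and DN cells 4 and 6 (1.49% and 1.34%). These are counts of genes chosen with earlier results of these data known. The median log2 fold change of the 72 was 0.00087, -0.04, -0.06 and -0.05, close to the medians of all genes (0, -0.02, -0.02 and -0.04). The other ligands Il17b, Il17c, Il17d and Il25 of the IL-17 family and Il19, Il20 and Il24 of the IL-10 family did not pass the filter.

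Among the receptors of these cytokines, 8 of 9 list genes passed, and the one called was Il17re, which encodes the partner of IL-17RA in the receptor for IL-17C. Among all genes, 0.277% were called lower in ILC1 and 2.17% in NKp46. Il17re fell by 1.54 ± 0.13 in ILC1 (adjusted p = 6e-07), from 37.7 ± 3.99 to 12.9 ± 1.61 CPM, and by 0.68 ± 0.13 in NKp46 (adjusted p = 0.0022). Fitted on the ILC1 libraries alone, where 12 genes in all were called, the ILC1 difference had an adjusted p of 0.23. Il17ra, the shared receptor chain, gave values from -0.73 to 0.01 and was called in no population. Il22ra1, the specific IL-22 receptor chain of epithelial cells, did not pass the filter.

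Of the 15 receptors that act upstream of Il17 and Il22 transcription, 1, 4, 3 and 2 were called lower in ILC1, NKp46, CCR6 and DN. In DN 1 was called higher. The shares of all genes called lower were 0.277%, 2.17%, 2.04% and 1.34% in the same order, and 1.49% were called higher in DN. Il23r, the IL-23 receptor chain that drives both cytokines in ILC3, fell in all 4 populations, by 1.28 ± 0.20 (ILC1), 1.73 ± 0.20 (NKp46), 0.98 ± 0.19 (CCR6) and 0.91 ± 0.19 (DN), with adjusted p-values of 0.00076, 7.3e-06, 0.0026 and 0.0073. The ILC1 call was lost in the fit of the ILC1 libraries alone (adjusted p = 0.67), and the DN call without WT DN library 3 or DKO DN library 3 (adjusted p up to 0.067). Its level in NKp46 went from 189 ± 20.8 to 56.9 ± 15.0 CPM. Il23r was lower in the NKp46, CCR6 and DN libraries in which Il17f was higher, and also in ILC1, where Il17f was not called. The part of Il23r in the cytokine differences was not tested. Il7r, the receptor for the ILC survival factor IL-7, fell by 0.66 ± 0.15 in NKp46, 0.82 ± 0.15 in CCR6 and 0.62 ± 0.15 in DN (adjusted p = 0.012, 0.0014 and 0.019). Leaving out 1 library ended the NKp46 call in 3 of 7 cases, which are the libraries compared and WT ILC1 library 2 (lost without WT NKp46 library 2, DKO library 1 or DKO library 2; adjusted p up to 0.098) and the DN call in 5 of 7 (all DN libraries other than WT library 1; up to 0.16). Il18rap, a chain of the IL-18 receptor, fell by 0.98 ± 0.17 in NKp46 and 0.85 ± 0.17 in CCR6. Il1r2, the decoy receptor for IL-1, fell by 5.40 ± 0.91 in NKp46 (adjusted p = 0.00075), from 42.1 ± 4.15 to 0.991 ± 1.36 CPM. Tgfbr1, a chain of the TGF-β receptor, rose by 0.87 ± 0.24 in DN (adjusted p = 0.047), and leaving out any DN library ended that call (adjusted p up to 0.25).

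Of 15 signalling genes, 1 was called higher in NKp46 and 1 in DN, against 1.99% and 1.49% of all genes. Socs3, which limits STAT3 signalling, rose by 1.28 ± 0.17 in NKp46 (adjusted p = 4.9e-05), from 107 ± 21.1 to 260.4 ± 5.60 CPM. Stat5b, a STAT factor of IL-2 and IL-7 signalling, rose by 0.80 ± 0.17 in DN (adjusted p = 0.0095), and missed the threshold without WT DN library 3 or DKO DN library 1 (adjusted p up to 0.09). Stat3, the factor that carries the IL-23 signal, gave -0.35 to 0.03 and was called nowhere.

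Of 19 genes listed as direct or indirect transcriptional regulators of the Il17 and Il22 loci, 2 were called higher and 2 lower in NKp46. CCR6 cells had 3 called higher and 2 lower, and DN cells 1 higher and 4 lower. Batf, an AP-1 factor of IL-17 production, fell by 0.84 ± 0.22, 1.22 ± 0.22 and 0.89 ± 0.21 in NKp46, CCR6 and DN. Id2, required by all ILCs, fell by 1.15 ± 0.14, 0.76 ± 0.14 and 0.77 ± 0.14 in the same order. Nfil3, a clock-controlled factor and REV-ERB target, rose by 1.29 ± 0.22 and 1.13 ± 0.22 in CCR6 and DN (adjusted p = 0.00069 and 0.0033). Ikzf3, which encodes Aiolos, rose by 1.09 ± 0.17 in CCR6, and the AP-1 gene Junb rose by 0.67 ± 0.15 in NKp46. Rora was also called higher in NKp46 (adjusted p = 0.049), up to 0.24 without any 1 of the NKp46 libraries other than WT library 2. Gata3, a factor of ILC development, fell in DN by 0.68 ± 0.16 (adjusted p = 0.016). Leaving out 1 library ended the Batf call in NKp46 in 4 of 7 cases (WT and DKO libraries 1 and 3; adjusted p up to 0.14), the Batf call in DN in 5 of 7 (all but WT library 2; up to 0.15), the Gata3 call in 4 of 7 (WT libraries 1 and 2, DKO libraries 2 and 3; up to 0.19) and the Junb call in 2 of 7 (WT and DKO library 2; up to 0.06). Ahr, the aryl hydrocarbon receptor, which supports IL-22 in ILC3, fell by 1.09 ± 0.26 in DN (adjusted p = 0.02), where Il22 was not called, and is named here after its values were seen.

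Other effector cytokines changed in differing directions. In CCR6 cells Csf2, which encodes GM-CSF, rose by 1.47 ± 0.29 (adjusted p = 0.0026), Tnf by 0.98 ± 0.18 (adjusted p = 0.0012) and Il2 by 1.10 ± 0.27 (adjusted p = 0.017), and the lymphotoxin gene Ltb fell by 0.57 ± 0.12 (adjusted p = 0.0068). Ifng, the interferon gamma gene, was also called in CCR6 (1.89 ± 0.50, adjusted p = 0.034) at 5.54 ± 1.02 CPM in DKO and 1.56 ± 1.88 CPM in WT. In NKp46 cells Tnf fell by 0.67 ± 0.18 (adjusted p = 0.03), Ltb rose by 0.45 ± 0.12 (adjusted p = 0.041) and Il4 was called higher (2.34 ± 0.60, adjusted p = 0.027). In DN cells Tnf rose by 0.78 ± 0.18 (adjusted p = 0.012), and in ILC1 Lta, another lymphotoxin gene, rose by 0.93 ± 0.15 (adjusted p = 0.0014). Several of these calls depended on single libraries. Leaving out 1 library ended the CCR6 calls of Il2 in 4 of 7 cases (WT libraries 2 and 3, DKO libraries 1 and 2; adjusted p up to 0.13), of Ifng in 5 of 7 (all but WT library 1; 0.21) and of Ltb without DKO library 3 (0.063). In NKp46 it ended those of Tnf (all but DKO library 2; 0.14), Ltb (all but DKO library 3; 0.22) and Il4 (all but DKO library 1; 0.14), and in DN that of Tnf (WT libraries 2 and 3, DKO library 2; 0.092). The Lta call was lost when the ILC1 libraries were fitted alone (adjusted p = 0.8).

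**Figure D4:**
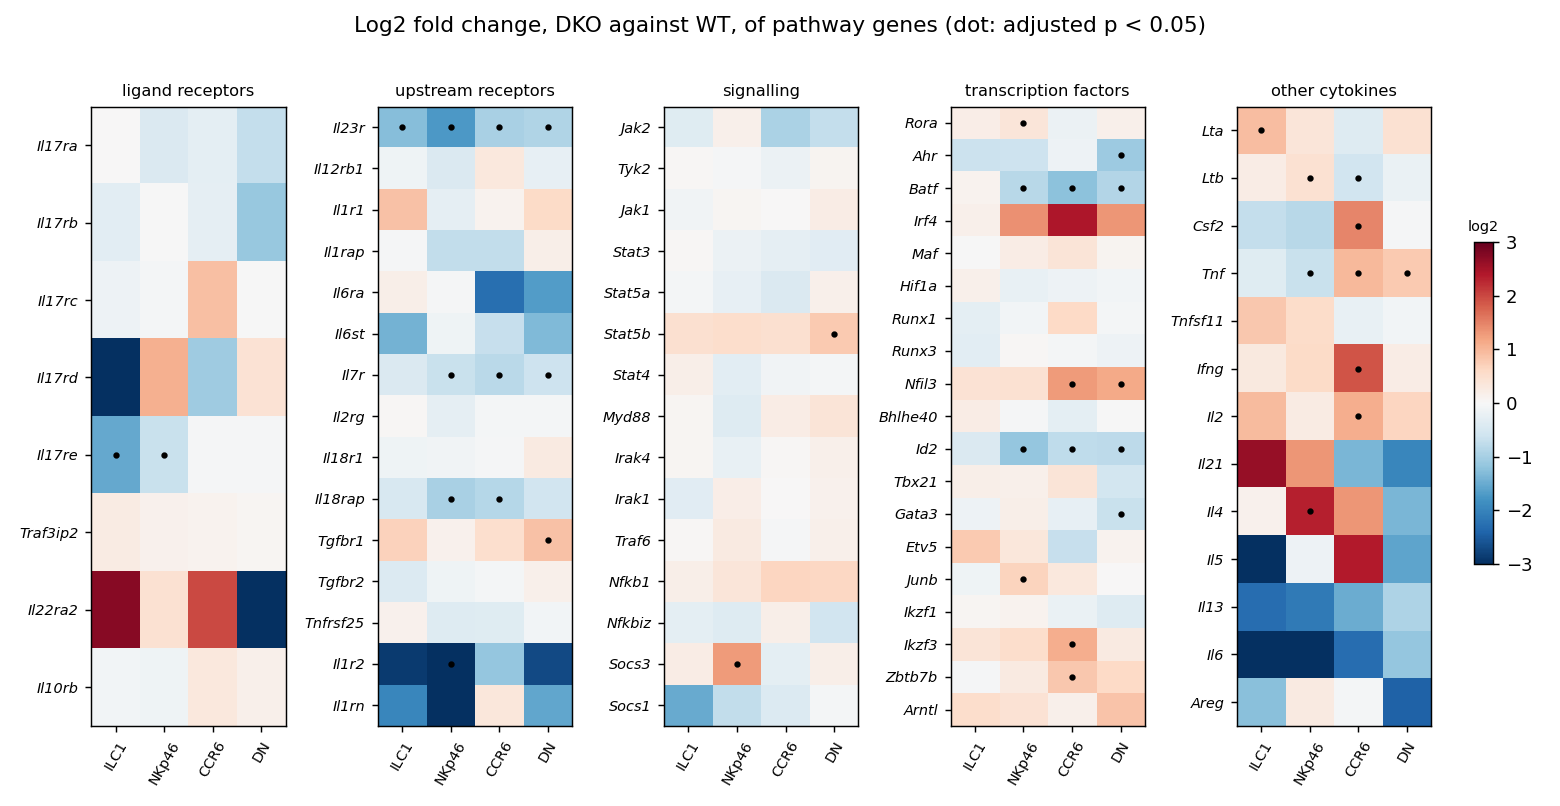
Log2 fold change of DKO against WT for the pathway genes that passed the filter, by role (panels) and sorted population (columns), with a dot where the adjusted p is under 0.05 and colours that saturate at 3 in either direction. Il23r carries a dot and lies below 0 in all 4 populations.

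Genes close to the cytokine loci were also read. Of 5 tested neighbours of Il17a and Il17f, 1 was called higher in NKp46 and 1 in CCR6, against 1.99% and 1.93% of all genes. Mcm3, a replication gene 12351 bases from Il17f, rose by 1.33 ± 0.30 in CCR6 (adjusted p = 0.0095), from 48.8 ± 4.04 to 122.7 ± 36.9 CPM. Paqr8, 99989 bases from Il17f on the same side, was called in NKp46 (adjusted p = 0.023) at 1.27 ± 0.855 CPM in DKO, with 0 counts in WT. Both calls depended on single libraries: Mcm3 had an adjusted p up to 0.087 without WT library 2, WT library 3 or DKO library 1, and Paqr8 up to 0.1 without any 1 of the WT libraries or DKO library 2. Of 6 tested neighbours of Il22, Ifng was called higher in CCR6, as given above, and no neighbour was called in the other populations.

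T cells also make IL-17, so transcripts of T cells and of IL-17-producing γδ T cells were summed per library. From the list of 17 T cell genes below, 5 were also summed alone, a set that the design did not lay out. The sum of Cd3d, Cd3e, Cd3g, Trac and Trdc, which encode parts of the T cell receptor complex, ranged from 1716 to 1845 CPM in WT DN and from 472 to 610.2 CPM in DKO DN, so it was lower in the DN libraries with more Il17f. The CCR6 libraries had 208 to 262 CPM with the WT label and 191 to 239.8 CPM with the DKO label, which overlap. WT NKp46 libraries had 46.5 to 78.0 CPM and DKO NKp46 libraries 68.8 to 125.5 CPM, and the DKO library with the highest sum also had the highest Il17f. WT ILC1 libraries had 296 to 390 CPM and DKO ILC1 libraries 164 to 276 CPM. The sum of all 17 genes was higher in every DKO library than in any WT library of CCR6 and NKp46. In DN it was lower in every DKO library.

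The whole list of 17 T cell genes had sums of 5193 to 5521 (WT DN), 4712 to 4980 (DKO DN), 1612 to 1843 (WT CCR6), 4014 to 4330 (DKO CCR6), 1983 to 2184 (WT NKp46), 2449 to 2939.5 (DKO NKp46), 1870.4 to 2749 (WT ILC1) and 2309 to 2663.5 CPM (DKO ILC1). Of its genes 8 were called lower and 1 higher in DN, and 2 lower and 3 higher in CCR6. In NKp46 2 were called higher, and in ILC1 1 each way. Among all genes, 1.34% were called lower and 1.49% higher in DN, and 2.04% and 1.93% in CCR6. The shares were 1.99% higher in NKp46, and 0.277% lower and 0.78% higher in ILC1. Lat, an adaptor of T cell receptor signalling, rose by 3.10 ± 0.17 in CCR6 (adjusted p = 8.3e-11), from 252 ± 40.2 to 2151 ± 56.2 CPM, by 1.87 ± 0.16 in DN and by 1.81 ± 0.16 in NKp46, and it is the largest part of the higher sum in CCR6. Trdc, the constant gene of the T cell receptor δ chain, fell by 1.85 ± 0.25 in DN (adjusted p = 6.3e-05), from 274 ± 44.6 to 76.0 ± 11.4 CPM, and was at 35.9 ± 5.41 and 34.8 ± 6.58 CPM in WT and DKO CCR6. Trac, the constant gene of the α chain, was called higher in NKp46 (1.28 ± 0.30, adjusted p = 0.017), up to 0.13 without WT library 1, WT library 2 or DKO library 1.

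Of the 8 genes listed for IL-17-producing γδ T cells, 4 of which are also on the T cell list, 5 were called lower in DN. In DN 1.34% of all genes were called lower. Blk, a kinase of these cells, fell by 3.75 ± 0.68 there (adjusted p = 0.0024), and Cd163l1, which encodes their surface marker SCART1, fell by 2.03 ± 0.45 (adjusted p = 0.011, up to 0.08 without WT library 3, DKO library 1 or DKO library 2). Sox13, a factor of their development, fell by 4.39 ± 1.00 (adjusted p = 0.013), from 23.7 ± 3.58 to 1.13 ± 0.469 CPM, and is named here after its values were seen. The list had sums of 2034 to 2515 (WT DN), 1742.5 to 1876 (DKO DN), 896 to 1021 (WT CCR6), 1355 to 1568 (DKO CCR6), 1190.2 to 1296 (WT NKp46), 1339 to 1655 (DKO NKp46), 486 to 1002 (WT ILC1) and 1081 to 1162 CPM (DKO ILC1). In NKp46 1 gene of the list, Blk, was called lower, and in CCR6 2 were called higher, Trgc1 and Trgc4, the latter with an adjusted p up to 0.11 without any 1 of the CCR6 libraries. In CCR6 cells the summed markers of lymphoid tissue inducer-like ILC3 were also lower in DKO, 3150 to 3947 CPM against 6022 to 6266 CPM, with 3 of 10 genes called lower. The shares of all genes were 2.17% called lower in NKp46, and 1.93% called higher and 2.04% lower in CCR6. The part of the listed markers in the cytokine differences was not tested.

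**Figure D5:**
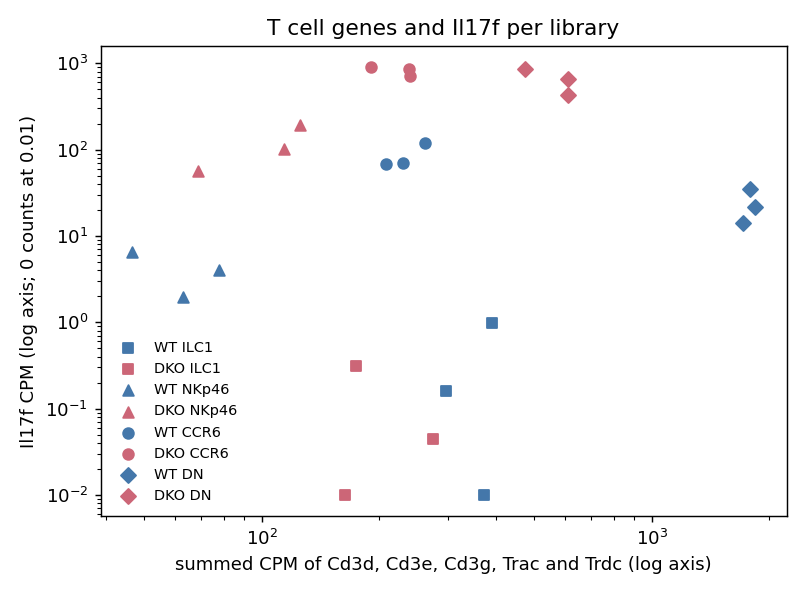
Il17f in CPM (log axis, 0 counts drawn at 0.01) against the summed CPM of Cd3d, Cd3e, Cd3g, Trac and Trdc (log axis) for the 24 libraries, with shapes for populations and colours for genotypes. The DKO DN libraries lie above and to the left of the WT DN libraries, with more Il17f and a lower sum of these 5 genes. The 5 are part of the longer T cell list.

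The genes whose levels followed each member most closely over the 24 libraries are given as a description. The libraries share populations and genotypes, so any gene with the same group pattern scores high. For Il17f the highest Pearson correlations of log2(CPM + 1) were with Cldn10 (0.957), Gm4240 (0.952), Palld (0.949), Ralb (0.946) and Slc41a3 (0.945). Palld, which encodes the actin-associated protein palladin, went from a mean of 14.6 CPM in WT to 151.6 CPM in DKO CCR6 cells and from 3.96 to 58.7 CPM in DN cells. For Il17a they were Slc41a3 (0.947), Aldh2 (0.946), Ramp1 (0.935), Slc6a13 (0.932) and Gm12349 (0.928). Ramp1, a subunit of the receptor for the neuropeptide CGRP, went from a mean of 226 CPM in WT to 524 CPM in DKO CCR6 cells. For Il22 they were Iltifb (0.967), Il17re (0.960), Smox (0.958), Serinc2 (0.957) and Hormad2 (0.952). Il17a and Il17f correlated with each other at 0.890, while Il22 correlated with Il17a at 0.634 and with Il17f at 0.693.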

How the data were processed

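Total RNA (10 ng per sample) from the sorted cells was made into SMARTer low-input libraries, and 1 table of counts per gene for all 24 libraries was deposited by the authors. The submitters' processing notes name featureCounts 2.0.3 and Subread, Salmon 1.5.2, STAR 2.7.9a with the mm10 genome, DESeq2, R 4.1 and bcl2fastq. Which of these tools made the deposited counts, whether strand was used and how reads that match several genes were treated is not given in the sources used here. The table has 55774 rows, and 168 identifiers repeat over 455 of them with identical counts, so 1 row of each was kept and 55487 genes remained. Columns were matched to libraries by name, and a title reading ko3_nkp4 was taken as NKp46, as its description spells it.

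Counts were fitted with edgeR 4.0.16 in R 4.3.3 (TMM factors, filterByExpr by group, robust quasi-likelihood, 8 group means, 16 residual degrees of freedom), with a common biological coefficient of variation of 0.573. Fold changes are log2 with their standard errors. CPM use the TMM-scaled library totals, and RPKM also the exonic length of the gene. Alternatives were DESeq2 1.42.0, limma 3.58.1 (voom), median-of-ratios size factors, no filter, the groups compared alone, a block for the replicate number alone or with genotype, each library left out, and other pseudocounts and populations for the ratios. Summing Il22 with Iltifb and the Iltifb share were added after the data were seen. The code was tested on simulated counts. Sequences come from RefSeq (GRCm38.p6) and coordinates from GENCODE on GRCm38.

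The members and the gene lists were chosen with earlier results of these data known. The named genes were drawn from the 3 members, Il23r, Iltifb and Ifng, and up to 4 called genes per list and population by adjusted p. The 5 genes most correlated with each member were added, as were those said to be named after their values were seen. Not every gene that this rule allowed is named in the text. Among those left out are 5830411N06Rik in DN, and Klrb1c, Ncr1, Cd8a and Cd8b1 in CCR6. 1 gene of the lists is not reported here and was left out of their counts. Same-numbered libraries were checked for pairing by the correlation of their deviations from group means. It ran from -0.187 to 0.325 between populations of a genotype and from -0.0282 to 0.344 between genotypes, with medians of 0.108 and 0.147, against -0.0481 and -0.051 for libraries with different numbers. Between populations of a genotype, 19 of 36 same-numbered pairs exceeded 0.1, against 4 of 72 with different numbers. Between genotypes 7 of 12 did, against 2 of 24. Since not every pair exceeded 0.1, a strict rule, the numbers were not taken to pair libraries in the main fit. Whether same-numbered libraries share an animal is not stated. Libraries of a group had Spearman correlations of 0.889 to 0.968 and differed by more than counting noise, with chi-square values per gene of 31.7 or more.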

Additional observations from a re-analysis of the deposited data

Results flagged for a closer look

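By the test of the difference itself in edgeR, the genotype effect on Il17a in NKp46 and in CCR6 differed from that in ILC1. The effect on Il17f differed from that in ILC1 in NKp46, CCR6 and DN. The Il17a effect in DN less that in ILC1 was not called (adjusted p = 0.054). For Il17a the log2 effect was 11.98 higher in NKp46 than in ILC1 (adjusted p = 0.0062) and 10.15 higher in CCR6 than in ILC1 (adjusted p = 0.0084). For Il17f it was 6.36 higher in NKp46 (adjusted p = 0.017), 4.82 higher in CCR6 (adjusted p = 0.047) and 6.33 higher in DN (adjusted p = 0.017). The Il17a values are fitted against 0 counts in DKO ILC1 and are therefore no measure of size. In each of these comparisons every DKO library of the other population exceeded its WT libraries, while in ILC1 the counts were near 0 and WT library 3 held most of them.

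Without WT ILC1 library 3 none of these 5 differences passed. The Il17a values became 7.22 (adjusted p = 0.31) and 5.40 (adjusted p = 0.44), and the Il17f values 3.10, 1.57 and 3.08 (adjusted p = 0.64, 0.84 and 0.75). With limma voom they were 8.28 and 5.88 for Il17a (adjusted p = 0.16 and 0.18) and 5.95, 4.42 and 5.83 for Il17f (adjusted p = 0.53, 0.62 and 0.67). The Il17f difference between CCR6 and ILC1 held in 5 of 18 alternatives. It was lost in 9 of 12 fits that left out 1 library, those without WT ILC1 library 1, DKO ILC1 library 3 or WT CCR6 library 1 being the ones that kept it, and also with no filter (adjusted p = 0.13), with the number as a block (0.061) and with genotype and number as a block (0.051). The Il17f difference between DN and ILC1 had an adjusted p of 0.055 with no filter. Without WT ILC1 library 2, the shallowest, the Il17f difference was 5.01 for CCR6 (adjusted p = 0.1) and 6.53 for DN (adjusted p = 0.06).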

How the results depend on the processing

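The higher Il17f in NKp46, CCR6 and DN kept its direction and its call in every alternative run. Values that moved across the threshold were as follows, with the cause not tested. In CCR6 the Il17a difference was 2.33 with limma voom (adjusted p = 1.2e-07), 2.21 with its 2 groups alone (0.00035) and 1.99 to 2.61 with a library left out, where it passed without WT ILC1 replicate 2 (0.031). In DN the 2 groups alone gave Il17a 1.22 (0.025), and in NKp46 they gave 4.06 (0.057). In ILC1 Il17a was -6.92 with DESeq2 (0.00092), -7.96 with median-of-ratios size factors (0.048) and -8.58 to -3.19 with a library left out. Il22 in NKp46 was -1.23 with DESeq2 (0.036) and -1.23 with the 2 groups alone (0.0012). With a library left out, ILC1 gave -1.59 to -0.18 for Il22, -4.52 to 1.70 for Il17f and -0.93 to 0.38 for Iltifb.

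The number of genes called between genotypes in CCR6 was 846, against 1330 with DESeq2, 1717 with voom and 1632 with the 2 groups alone. In DN it was 602, against 1033, 1072 and 1199 in the same order and 357 to 918 with a library left out. In ILC1 it was 225, against 722 with DESeq2, 12 with the 2 groups alone and 145 to 665 with a library left out. In NKp46 it was 885, against 1692 with DESeq2 and 529 to 1388 with a library left out.

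Signs also turned for differences that were not called. The genotype effect on Il17f in DN less that in NKp46 was 0.0034 with DESeq2, 0.0079 with no filter, 0.013 with genotype and number as a replicate block and -0.51 to 0.56 with a library left out. Leaving out a library gave -2.36 to 3.03 for Il17a in WT NKp46 against ILC1, and -0.67 to 0.75 and -1.06 to 0.34 for the Il22 effects in CCR6 and in NKp46 less that in ILC1. Of 995 values for the list genes that the naming rule allowed, 850 kept their call, 144 lost it, 1 gained it and 0 reversed.

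With the replicate number as a block, 72 of 74 results kept their call. The exceptions were Il17a in DKO DN against CCR6 (-2.63, adjusted p = 0.059) and the Il17f genotype effect in CCR6 less that in ILC1 (4.84, adjusted p = 0.061). The blocked fit called 222, 1023, 901 and 672 genes in ILC1, NKp46, CCR6 and DN, and 20 of 24 libraries correlated best with their own number, a hint from the data and not from the design. The ratios between members kept their direction and side of the threshold under every pseudocount and set of populations, but Il17f to Il17a only just. Its rise ran from 1.03 to 2.31, with an unadjusted exact permutation p up to 0.048. By population it was 3.59 in DN and 1.03 in NKp46 and in CCR6. Il22 to Il17f ran from -5.46 to -3.76, with a p up to 0.005 in the same test. Low Il17 counts in ILC1, 3 libraries per group and reads shared by Il22 and Iltifb limit these results.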

Other observations

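Markers of the sorted subsets also differed between genotypes in the libraries that gave more Il17f. In CCR6 cells the antigen presentation genes Cd74 and H2-Ab1 fell by 1.21 ± 0.21 (adjusted p = 0.00096) and 1.22 ± 0.24 (adjusted p = 0.0025), and Cd74 went from 1772 ± 57.1 to 767 ± 114 CPM (SD, n = 3). In NKp46 cells H2-Aa, another gene of that group, rose by 1.81 ± 0.24 (adjusted p = 4.7e-05), from 7.54 ± 1.62 to 26.5 ± 8.78 CPM. Of the 10 markers of lymphoid tissue inducer-like ILC3, 2 were called higher in NKp46 and 3 lower in CCR6 (1.99% and 2.04% of all genes).

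Of 9 markers of NKp46 and type 1 cells, 1 was called higher and 3 lower in CCR6, 1 lower in NKp46 and 3 lower in DN. Among all genes, 1.93% were called higher in CCR6, and 2.04%, 2.17% and 1.34% lower in CCR6, NKp46 and DN. In DN cells Klrb1c, which encodes the NK1.1 receptor, fell by 1.41 ± 0.17 (adjusted p = 1.8e-05), Ctsw, a protease gene of cytotoxic cells, fell by 1.04 ± 0.16 (adjusted p = 0.00037), and Nkg7, a granule gene, fell by 1.21 ± 0.26 (adjusted p = 0.009, and 0.097 without DKO DN library 2). Their list summed to 1568 to 1613 CPM in WT DN and 695 to 927 CPM in DKO DN. The 9 ILC2 markers had 1 gene called lower in each of NKp46, CCR6 and DN, and summed to 1285 to 1873 CPM in WT DN and 679 to 1025 CPM in DKO DN.

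Of 6 B and plasma cell markers, Cd79b alone was called, lower in NKp46, CCR6 and DN, and the list summed to 40.6 to 196 CPM over those groups. Of 8 myeloid markers, 1 was called lower in NKp46 and 2 in CCR6, among them Fcer1g, a signalling chain that type 1 lymphocytes also express. Their sum was lower in every DKO library than in any WT library of each population. WT and DKO had 1203 to 1360 and 804 to 965 CPM in NKp46, and 1176 to 1524 and 734 to 931 CPM in CCR6. The sums were 879 to 960 and 722 to 789 CPM in DN, and 1479 to 2006 and 1159 to 1448 CPM in ILC1. The 7 epithelial markers summed to at most 26.5 CPM in each of the 24 libraries. Among all genes, 2.17%, 2.04% and 1.34% were called lower in NKp46, CCR6 and DN. The part of any of the markers above in the cytokine differences was not tested.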
